A study of Rattus norvegicus with 8 samples.

Results

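Differences in microRNA signal between arrays with and without NP were read in cultured rat Sertoli cells, from 340 of the 680 mature rat microRNA rows of an array of 1166 rat rows. A row was used where the mean of its 4 deposited signals reached the median of the mature rows, 1.35. Of these 340 rows, 232 were not marked as star forms and are called guide rows here, and 108 were star rows. The guide rows therefore also hold some opposite arms that are named by arm and not as star, such as miR-30b-3p. The highest rows left out were miR-20a-star at 1.3451 and miR-3585-5p at 1.3127, and the lowest rows kept were miR-133b at 1.3472 and miR-511-star at 1.3476. The filter sets a level and is not a detection call.

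Sertoli cells are the somatic cells of the seminiferous tubule that nurse germ cells. They were taken from rat testes, kept in primary culture for 24 hours, and then given solvent (control), 0.1 µM NP, 0.1 mM MBP, or 0.1 µM NP with 0.1 mM MBP (NP+MBP) for another 24 hours. The labels do not spell out NP or MBP and give no strain, age or number of animals. Each group had 1 microRNA array, which limits the precision of each value below, and the labels do not say how many cultures it stood for. NP was present on 2 arrays and absent from 2, which gave a first pair, NP minus control, and a second pair, NP+MBP minus MBP, with no array in common. Errors are the SD of these pair differences about their mean (n = 2 pairs), so a true interaction of NP with MBP would widen them. In bulk RNA, fewer cells of a type and less of a microRNA per cell cannot be told apart.

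A microRNA is a short RNA cut from a hairpin precursor. The guide strand is loaded into an Argonaute protein and pairs, mainly through its seed, with sites in messenger RNAs whose translation and stability it lowers, while the star strand from the other arm is usually degraded. MicroRNAs with the same seed form families that can act on overlapping targets. In the testis, loss of the processing enzyme Dicer from Sertoli cells of the mouse disrupts spermatogenesis.

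On the gene-level array of the same 4 groups, the Sertoli cell transcripts Sox9, Wt1 and Clu spanned narrow log2 ranges. Sox9 lay at 10.60 to 10.65, Wt1 at 9.64 to 9.81 and Clu at 11.43 to 11.53. Amh, also a Sertoli cell transcript, was lower, at 7.27 to 7.45, near the median of all probe sets, 7.45. The leukocyte gene Ptprc spanned 6.20 to 6.42 and the stromal collagen gene Col1a1 12.77 to 12.79. On the microRNA array miR-202, a microRNA of the Sertoli lineage in mouse gonads, was under the filter on all 4 arrays, between 0.26 and 0.84, while miR-202-star, from the same precursor, lay between 8.71 and 9.27. Of the 6 blood cell rows listed, miR-150 alone passed the filter, at 3.63 to 3.86, and erythroid miR-451 and myeloid miR-223 stayed at or below 1.46. Endothelial miR-126 lay between 7.67 and 8.15. Smooth muscle miR-143 and miR-145 lay between 13.33 and 13.94, among the highest rows of the array.

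The sequences below, from RefSeq (GRCr8), belong to 13 of the 14 microRNAs at least 1.5-fold apart the same way in both pairs, and are shown because their base composition is taken up later. miR-500-star is the other. The arm was taken from general knowledge for miR-450a, miR-493-star, miR-872, miR-505, miR-133a, miR-374, miR-379-star and miR-370. Each sequence is written 5′ to 3′ with the seed, bases 2 to 8, in capitals. The first 9 read lower with NP in both pairs and the last 4 read higher.
miR-450a: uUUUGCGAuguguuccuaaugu
miR-493-star: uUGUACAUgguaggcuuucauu
miR-29b: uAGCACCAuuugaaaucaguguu
miR-872: aAGGUUACuuguuaguucagg
miR-505: gUCAACACuugcugguuucc
miR-133a: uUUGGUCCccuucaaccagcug
miR-374: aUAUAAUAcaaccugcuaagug
miR-379-star: cUAUGUAAcaugguccacuaac
miR-1188-3p: cGAGGCUCcccaccaca
miR-678: gUCUCGGGgcaaggacuggagg
miR-328b-3p: cUGGCCCUcucugcccua
miR-466b: uAUGUGUGuguguauguccaug
miR-370: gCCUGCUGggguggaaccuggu

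No microRNA passed the test for NP. The direction was the same in both pairs for 120 rows that were higher and 102 that were lower, and few of these were past 1.5-fold in both, all with mean signals in the lower 3 of 4 signal bins. In the additive model of NP and MBP fitted with limma, which left 1 residual degree of freedom, 0 of 340 rows (0%) had a Benjamini-Hochberg adjusted p under 0.05. The smallest adjusted p of this limma fit was 0.466, and 32 rows had an unadjusted p under 0.05, of which 10 had a positive estimate. For NP minus control, 4 rows (1.18%) were at least 2-fold higher and 10 (2.94%) at least 2-fold lower, taking the deposited values as log2. For NP+MBP minus MBP, 2 rows (0.588%) were at least 2-fold higher and 20 (5.88%) lower. At least 1.5-fold the same way in both pairs, 4 rows (1.18%) were higher and 10 (2.94%) lower. Of the 340 rows under the filter, 2 were higher and 6 lower by this measure. At 2-fold those rows had 3 higher and 10 lower in the first pair, and 4 and 9 in the second. miR-20a-star, just under the filter, was among the 6 lower, at -0.76 and -0.61, so these counts depend on where the filter falls. Some kept rows, given further below, were at least 1.5-fold apart in opposite directions in the 2 pairs. Over the 340 rows kept, both NP arrays lay above both arrays without NP for 91 rows (26.8%) and below them for 43 (12.6%).

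The split between higher and lower rows depended on how the arrays were scaled. The median of all 680 mature rows differed by -0.21 between the NP array and control and by -0.22 between NP+MBP and MBP, whereas the median difference over the 340 members was 0.02 in the first pair and 0.03 in the second. Centring each array on the median of the mature rows gave 9 higher and 6 lower in the first pair, 11 and 9 in the second, and 13 and 6 at 1.5-fold in both. Quantile normalization gave 7 and 11 in the second pair, and cyclic loess also gave 7 and 11. Over the rows under the filter the median difference was 0.00 in each pair. Median centring adds the same amount to every row's difference in a pair, so small negative medians below can turn positive under it. Values below are as deposited.

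Among the 10 microRNAs lower in both pairs, miR-450a had nearly equal differences. Its signal was 2.72 on control, 1.46 on NP, 3.75 on MBP and 2.49 on NP+MBP, a mean difference of -1.26 ± 0.00 with an adjusted limma p of 0.466. Both NP arrays lay below both others, and MBP was the highest array, as it was for all 10 of these microRNAs. miR-450a is made from an X-linked cluster with miR-322, miR-503, miR-351 and miR-542.

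miR-29b, whose family is known for repressing collagen and other matrix transcripts, read 3.11 on control, 1.96 on NP, 3.36 on MBP and 2.33 on NP+MBP. Its mean difference was -1.08 ± 0.08, and the arrays with NP lay below those without. The other members share its seed. miR-29a read 10.86, 10.66, 11.25 and 10.94 in the same order, a mean difference of -0.25 ± 0.08. miR-29c read 2.93, 2.75, 2.99 and 3.15, a mean difference of -0.01 ± 0.25, with the arrays overlapping. The mature sequences, given to show where the members differ outside the seed, are as follows.
miR-29a: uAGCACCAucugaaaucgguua
miR-29b: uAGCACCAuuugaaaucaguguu
miR-29c: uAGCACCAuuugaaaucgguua
The median of the 3 guide rows was -0.25, and it was -0.04 after median centring. The star row miR-29b-2-star, from a miR-29b precursor, read 2.33, 1.32, 3.10 and 2.79, lower in both pairs. The miR-29b hairpin rows, between -0.54 and 0.39, were all under the filter.

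miR-133a and miR-133b, microRNAs of striated muscle that share the seed UUGGUCC, were both lower in both pairs. The signal of miR-133a was 2.64 on control, 0.72 on NP, 3.13 on MBP and 2.42 on NP+MBP (-1.31 ± 0.86). That of miR-133b was 1.66, 1.12, 1.87 and 0.74 (-0.83 ± 0.43). The NP arrays lay below the others for both, and the lowest arrays were under the filter. For miR-133b both arrays with NP were under it, so this row passed only through the arrays without NP.
miR-133a: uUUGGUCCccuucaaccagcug
miR-133b: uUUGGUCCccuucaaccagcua
Rows of such near-identical sequences may share signal, which was not tested. The other striated muscle rows did not pass the filter. miR-1 lay between -0.37 and 0.73, with differences of 0.02 in the first pair and 0.99 in the second. miR-206 lay between 0.79 and 1.13, with differences of -0.25 and 0.34. Neither was lower in both pairs as miR-133a and miR-133b were.

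Of the other lower microRNAs, miR-872 read 3.42 on control, 2.40 on NP, 4.47 on MBP and 3.59 on NP+MBP (-0.95 ± 0.10). Its control array lay below the NP+MBP array, so the arrays with and without NP overlapped, the one such case among the 10. miR-374 read 4.36, 3.67, 5.07 and 3.59 (-1.08 ± 0.56), and miR-505 read 2.21, 1.35, 2.67 and 1.03 (-1.25 ± 0.55). For both, the second pair differed by more than the first.

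The star rows among the 10 were miR-493-star, miR-379-star and miR-500-star. miR-493-star read 1.87 on control, 0.32 on NP, 2.63 on MBP and 1.44 on NP+MBP (-1.37 ± 0.26). miR-379-star read 3.94, 2.40, 4.54 and 3.87 (-1.10 ± 0.62), and miR-500-star read 2.84, 2.02, 3.52 and 2.51 (-0.91 ± 0.13). Both NP arrays were below both others in each. miR-1188-3p read 1.68, 0.86, 2.09 and 1.45 (-0.73 ± 0.13), also with the NP arrays lowest. The next in order were miR-203, a microRNA of epithelia, at -0.70 ± 0.21 with overlapping arrays, and miR-301a at -0.68 ± 0.19.

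The 4 microRNAs higher in both pairs included miR-370, the one with the highest signal of the 14. Its signal was 5.10 on control, 5.69 on NP, 5.12 on MBP and 5.79 on NP+MBP, a mean difference of 0.63 ± 0.06. miR-466b, from a repeat-rich rodent family, read 4.70, 5.35, 3.61 and 5.13 (1.08 ± 0.62). The NP arrays lay above the arrays without NP for both, although for miR-466b the MBP array stood well below control.

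miR-678 read 2.65 on control, 3.88 on NP, 2.12 on MBP and 3.06 on NP+MBP (1.08 ± 0.21). miR-328b-3p read 2.88, 3.67, 2.06 and 2.95 (0.84 ± 0.07). The NP arrays were again above the others, though NP+MBP was close to control for miR-328b-3p. The next 8 by the smaller of their pair differences were miR-881, miR-770-star, miR-485, miR-139-5p, miR-184, miR-1188-5p, miR-181c-star and miR-540, with mean differences of 0.40 (miR-540) to 0.75 (miR-881). All 8 had both NP arrays above both others. Of these, miR-881 was under the filter on both arrays without NP and passed only through the arrays with NP.

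**Figure D1:**
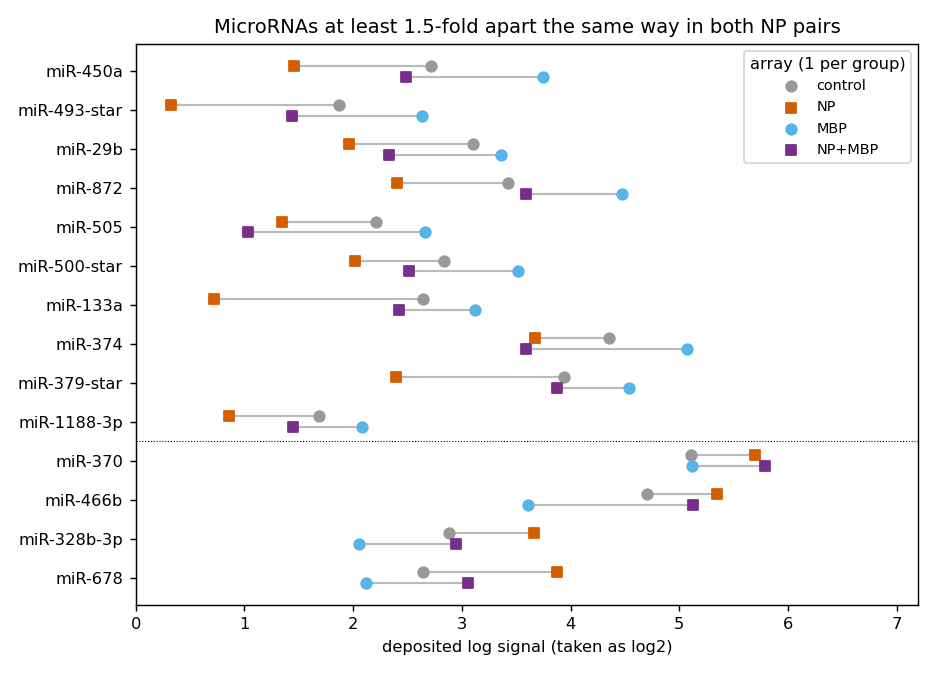
Deposited log signal (horizontal, taken as log2) of the 14 microRNAs at least 1.5-fold apart the same way in both pairs, 1 point per array, with grey lines joining the arrays of a pair. The 10 above the dotted line read lower with NP, with mean differences of -1.37 to -0.73, and the 4 below it read higher, by 0.63 to 1.08.

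Other rows of the same precursor often differed less or the other way. miR-505-star, the other arm of the miR-505 hairpin, read 6.26 on control, 6.61 on NP, 5.85 on MBP and 6.37 on NP+MBP, higher in both pairs while miR-505 was lower. miR-1188-5p read 3.24, 4.01, 3.34 and 3.77, also higher in both pairs while miR-1188-3p was lower. miR-379 read 9.75, 9.76, 9.58 and 9.81, and miR-500 read 7.93, 8.09, 7.80 and 7.89. These guide rows had pair differences of 0.02 to 0.24. The miR-466b-2-star row read 5.76, 5.34, 4.58 and 3.73, lower in both pairs while miR-466b was higher. miR-872-star and miR-493 were lower in both pairs, as miR-872 and miR-493-star were, with pair differences of -0.61 to -0.16.

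The size of the differences and the agreement of the pairs both followed signal. The rows were cut into 4 bins of 85 by mean signal. In the lowest bin, with means of 1.35 to 3.24, the SD of the differences over rows was 0.67 in each pair, and the correlation of the pairs was r = 0.07. In the highest bin, 8.21 to 13.92, the SDs were 0.12 and 0.22 and r was 0.62. No row of the upper bins, those from 5.30 upward, was 2-fold apart in either pair. Over all 340 rows r was 0.17, with 0.35 over guide rows and -0.04 over star rows. These are correlations across microRNAs, which share arrays, depth of signal and base composition and are not independent replicates, so they carry no p.

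**Figure D2:**
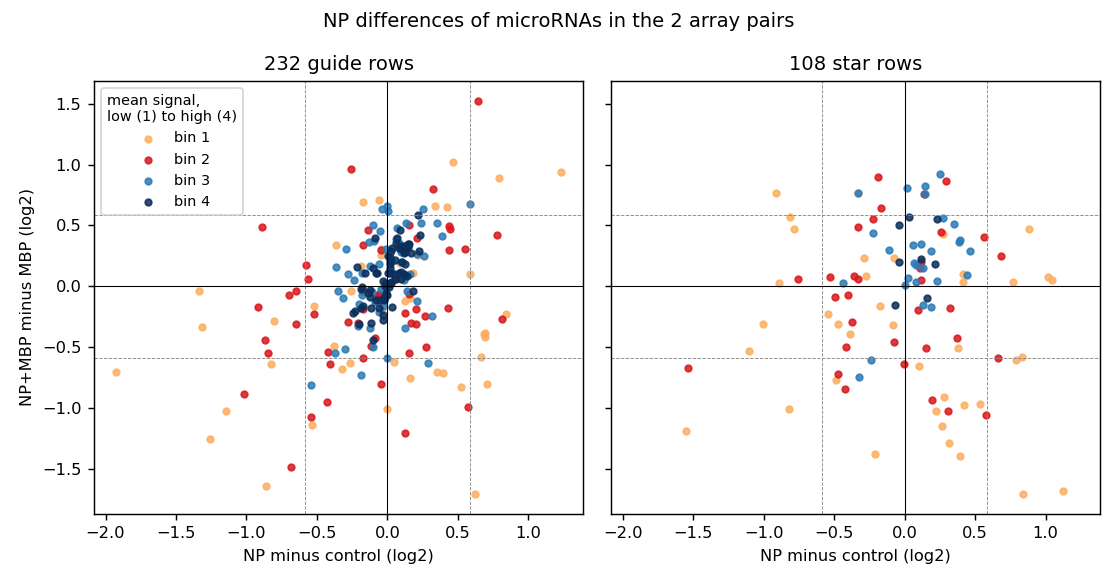
NP minus control (horizontal) against NP+MBP minus MBP (vertical), both in log2, for the 232 guide rows and the 108 star rows, with 1 point per row coloured by bin of mean signal (1 lowest, 4 highest) and dashed lines at 1.5-fold. Rows of the highest bin lie near the origin, with SDs of 0.12 and 0.22, and the wide scatter comes from the low bins.

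The rows with the highest signal had small differences. miR-145 read 13.90 on control, 13.89 on NP, 13.94 on MBP and 13.94 on NP+MBP (-0.01 ± 0.02). miR-143, made from the same precursor transcript, read 13.40, 13.38, 13.43 and 13.33 (-0.06 ± 0.06). Both are microRNAs of smooth muscle and related stromal cells. let-7c, miR-125b-5p, miR-24, miR-23a and miR-23b, all between 13.27 and 13.93, had mean differences of -0.03 to 0.10. Signals this high may be compressed near the top of the array's range, and their part in these small differences was not tested.

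The let-7 family, which holds cells in a differentiated state and is held back by the RNA-binding protein Lin28, showed 4 members higher and 4 lower in both pairs, with a median of -0.02 over its 8 guide rows that turned to 0.20 with median centring. The members share their seed and are listed from the fewest G and C bases to the most.
miR-98: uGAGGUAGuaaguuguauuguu
let-7f: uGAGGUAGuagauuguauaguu
let-7a: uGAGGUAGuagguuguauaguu
let-7i: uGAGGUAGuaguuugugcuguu
let-7c: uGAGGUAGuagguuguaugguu
let-7d: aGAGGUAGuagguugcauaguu
let-7e: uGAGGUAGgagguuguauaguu
let-7b: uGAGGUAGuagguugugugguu
miR-98 and let-7f, with 7 G or C bases of 22, were the lowest with NP. miR-98 read 5.16 on control, 4.88 on NP, 5.30 on MBP and 5.0 on NP+MBP (-0.29 ± 0.01). let-7f read 10.23, 10.13, 10.47 and 10.03 (-0.27 ± 0.24).

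let-7a, with 8, was at -0.06 ± 0.05. Of the members with 9, let-7i was at -0.15 ± 0.18, let-7c at 0.03 ± 0.01, let-7d at 0.06 ± 0.01 and let-7e at 0.22 ± 0.14. let-7b, with 10, read 13.72, 13.73, 13.53 and 13.78 (0.13 ± 0.17). The members below 9 were all lower with NP and the member with 10 was higher, with both signs at 9. Sequences this alike may share signal on an array, which was not tested.

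**Figure D3:**
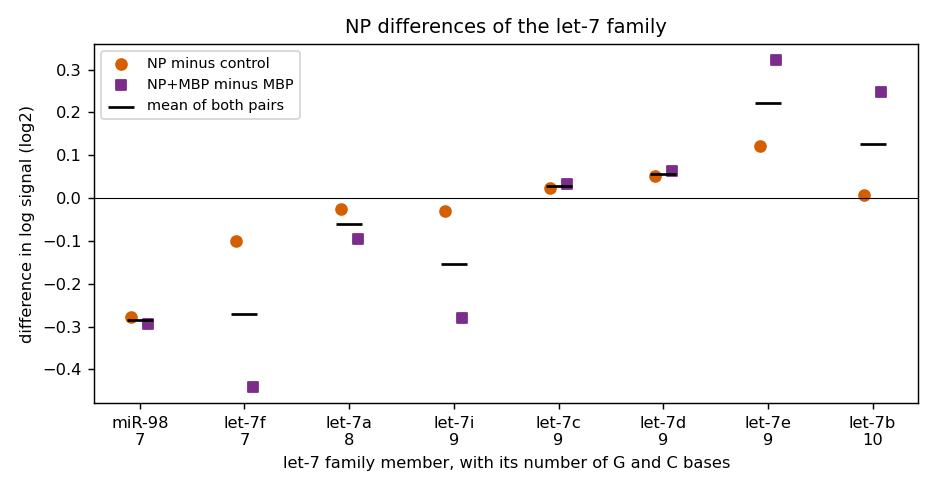
Difference in log signal (vertical, log2) of the 8 let-7 family members in each pair, with the mean of both as a bar, ordered by the number of G and C bases. The mean runs from -0.29 for miR-98 with 7 to 0.22 for let-7e with 9 and 0.13 for let-7b with 10; median centring would move every point up by about 0.21.

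The same order held over the members as a whole. A G and C content could be given for 305 of the 340 rows (89.7%). It was the mean of both arms for 156 whose arm was not settled. For another 30 it came from a listed arm that may not be the row's own. The rows were cut into 4 bins by content. In the lowest, 28.6% to 43.5%, 14 of 78 rows were higher in both pairs and 44 lower, with medians of -0.12 in the first pair and -0.29 in the second. In the highest, 56.5% to 77.3%, 36 of 76 were higher in both and 7 lower, with medians of 0.13 and 0.27. The second and the third bins lay between, with medians of 0.00 and 0.08 in the first pair and 0.04 and 0.11 in the second.

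The correlation of this content with the mean NP difference was r = 0.39 over the 305 rows and 0.35 to 0.55 within the signal bins. It was 0.47 over the 119 rows matched to 1 arm, which for 37 of them was taken from general knowledge. Length had r = 0.05. These too are descriptions across rows that share arrays. The 4 arrays did not line up by NP alone. In the lowest content bin the median deviation from the row's own mean was -0.02 on control, -0.20 on NP, 0.27 on MBP and 0.00 on NP+MBP. In the highest content bin it was -0.01, 0.09, -0.18 and 0.07. The low-content rows were therefore highest on MBP and lowest on NP.

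Of the 10 microRNAs lower in both pairs, miR-374, miR-29b, miR-450a, miR-493-star, miR-872 and miR-379-star had contents of 31.8% to 40.9%, and of the 4 higher ones, miR-328b-3p, miR-370 and miR-678 had 66.7% to 68.2%. miR-1188-3p, lower at 70.6%, and miR-466b, higher at 40.9%, went the other way. The other lower ones, miR-505, miR-500-star and miR-133a, had middling contents of 50.0% to 54.5%, which for miR-500-star is the mean of both arms. After the content was regressed out of each array, all 14 kept their direction, and 8 of the 10 and 2 of the 4 were still 1.5-fold apart in both pairs.

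**Figure D4:**
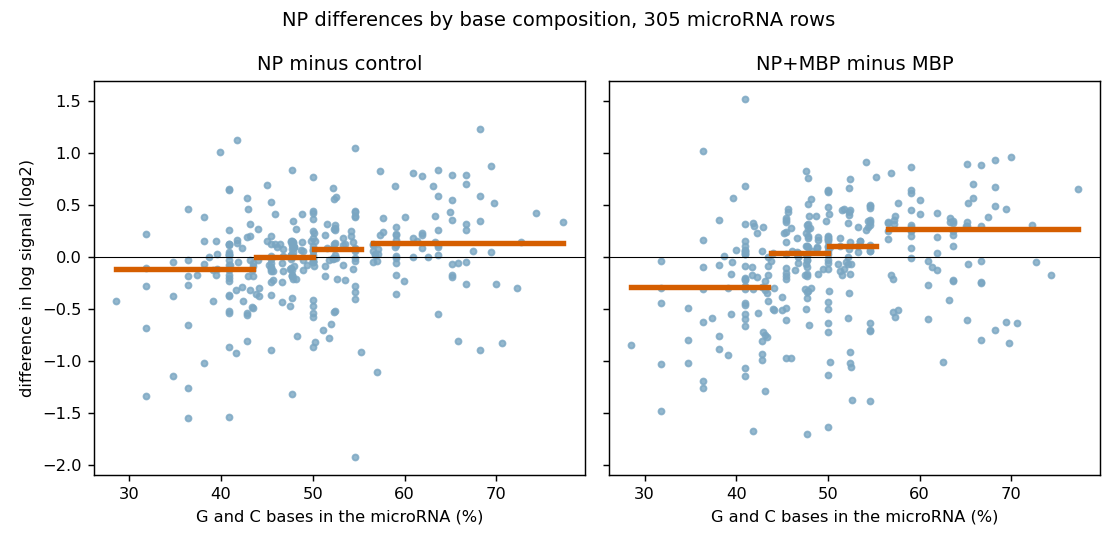
Difference in log signal (vertical, log2) against the share of G and C bases (horizontal, %) for 305 rows in each pair, with orange bars at the median of each content bin. The bars rise from -0.12 to 0.13 in the first pair and from -0.29 to 0.27 in the second.

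By family, the lists with at least 2 guide rows had medians of -0.12 to 0.11, apart from the muscle list at -1.07 and miR-29 at -0.25. The muscle list held miR-133a and miR-133b alone, with low mean signals of 2.23 and 1.35. Because miR-133b passed the filter only through the arrays without NP, that list's lower median follows in part from the filter. The median of all members was 0.01, and most of the medians near it turned sign with scaling. The lists give known families and clusters, and their members were not all measured above the filter. The 12 of 15 rows of the miR-17 family, whose clusters promote proliferation, had a median of 0.05, with 4 higher and 3 lower in both pairs, and -0.01 with cyclic loess. miR-93 read 10.51 on control, 10.66 on NP, 10.34 on MBP and 10.69 on NP+MBP (0.25 ± 0.15). miR-19b read 10.34, 10.23, 10.72 and 10.42 (-0.21 ± 0.13). These members stood on opposite sides of 0.

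The 6 rows of the miR-15/16 family, which restrain the cell cycle, had a median of -0.12, with 2 higher and 4 lower in both pairs, and 0.09 with median centring. miR-16 read 12.36, 12.19, 12.52 and 12.35 (-0.17 ± 0.01), and miR-503 read 9.65, 9.77, 9.60 and 9.93 (0.22 ± 0.15). For miR-16 the NP arrays lay under the others, with NP+MBP and control nearly level. The 6 miR-30 rows had a median of -0.10, with 1 higher and 4 lower in both pairs, and 0.11 with median centring. The 1 higher was miR-30b-3p, at 0.56 ± 0.34, the arm opposite miR-30b-5p. miR-30e, the lowest, read 6.47, 6.10, 6.82 and 6.28 (-0.46 ± 0.12).

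The pair miR-221 and miR-222, known for repressing the receptor Kit, stood at -0.12 ± 0.08 and 0.08 ± 0.09. Their median of -0.02 turned to 0.20 with median centring. The 4 miR-181 rows had a median of 0.06 and -0.01 with cyclic loess. miR-181b read 10.31, 10.46, 10.10 and 10.42 (0.23 ± 0.13), while miR-181c, at -0.11 ± 0.33, differed between the pairs. The 9 of 10 rows of the miR-10, miR-99, miR-100 and miR-125 families had a median of 0.08, with 4 higher and 4 lower in both pairs, and miR-10b, at -0.41 ± 0.15, was the lowest. Their median was 0.29 with median centring, 0.05 with quantile normalization, 0.00 with cyclic loess and -0.01 with content regressed out. These rows included miR-125a-3p and miR-125b-3p, the arms opposite miR-125a-5p and miR-125b-5p.

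The 5 rows of the miR-23, miR-27 and miR-24 clusters had a median of 0.01 (-0.04 with cyclic loess) and a range of -0.10 to 0.10. Of the 6 rows of miR-34 and miR-449, which act in germ cell development and multiciliated cells, 3 passed the filter. Their median was 0.02, and -0.05 with cyclic loess. miR-34a and miR-34c both stood at 0.02. miR-449a read 2.23 on control, 0.91 on NP, 2.52 on MBP and 2.19 on NP+MBP (-0.82 ± 0.70), so that most of its difference came from the first pair.

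Of the 14 guide rows of miR-202 and the X-linked testis clusters, 9 passed the filter. Their median was 0.11, with 2 higher and 0 lower in both pairs, and it stayed positive under the other scalings and filters. The pairs differed in sign, with a median of -0.14 in the first and 0.34 in the second. Other lists also did so, among them the guide rows of miR-17 (-0.08 and 0.15) and of miR-34 and miR-449 (-0.12 and 0.15). miR-743a read 5.65, 5.52, 5.96 and 6.32 (0.11 ± 0.35), and miR-878 read 5.07, 4.49, 5.60 and 5.78 (-0.20 ± 0.53). Both rows were lower on NP than on control and higher on NP+MBP than on MBP, and this difference between the pairs was not tested. miR-881, at 1.28, 1.75, 0.72 and 1.74 (0.75 ± 0.39), and miR-742, at 0.24 ± 0.14, were higher in both pairs. miR-881 was under the filter on both arrays without NP and passed only through those with NP. Its higher reading therefore follows in part from the filter, and it is counted among the 2 higher. miR-463 went the reverse way, with 0.15 in the first pair and -0.55 in the second. The star row miR-202-star read 9.11, 9.15, 8.71 and 9.27 (0.30 ± 0.38), higher in both pairs.

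Star rows were summarised by the same lists, and their medians went both ways. The 6 star rows of the miR-23, miR-27 and miR-24 clusters had a median of 0.11, with 4 higher and 0 lower in both pairs. The 6 of 12 star rows of the miR-17 family had a median of 0.30, with 3 higher and 0 lower, and both medians stayed positive under the other scalings, at 0.05 to 0.51. On the other side, miR-29b-2-star, the 1 miR-29 star row kept, was at -0.66. The 2 rows of miR-221 and miR-222 had a median of -0.30, with 0 higher and 1 lower in both pairs. The 4 miR-181 rows had a median of -0.24, with 1 higher and 2 lower. All 3 values stayed negative under the other scalings, and with median centring they stood at -0.45, -0.09 and -0.03. The 7 star rows of the microRNAs listed singly had a median of -0.17, with 0 higher and 4 lower in both pairs, and 0.04 with median centring. Over all 108 star rows, 39 were higher and 23 lower in both pairs, and the median was 0.02.

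The 17 widely expressed microRNAs listed singly all passed the filter, with 8 higher and 8 lower in both pairs and a median of 0.03, which was -0.02 with cyclic loess. miR-199a-3p, a stromal microRNA, read 12.49 on control, 12.26 on NP, 12.68 on MBP and 12.48 on NP+MBP (-0.22 ± 0.02). miR-26a read 13.20, 13.23, 13.25 and 13.28 (0.03 ± 0.00), and miR-21 was at -0.18 ± 0.00. Of the 5 epithelial miR-200 rows, 3 passed, with a median of 0.04. Of the 8 rows of the miR-290 and miR-302 clusters of embryonic stem and germ cells, miR-292-3p alone passed, at 0.04 ± 0.88. None of the neuronal miR-124 and miR-9 and the hepatic miR-122 did.

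The imprinted Dlk1-Dio3 cluster, a long array of microRNAs expressed from the maternal chromosome, had 40 of 49 guide rows and 17 of 36 star rows above the filter. The guide rows had a median of 0.01, with 15 higher and 10 lower in both pairs, and 0.22 with median centring. The star rows had a median of -0.21, with 5 higher and 5 lower, and 0.01 with median centring. Their pairs differed in sign, with medians of 0.27 in the first and -0.53 in the second. miR-370, miR-485 and miR-540 were among the highest of the array in both pairs, and miR-493-star and miR-379-star among the lowest. miR-539 read 3.60 on control, 3.06 on NP, 4.18 on MBP and 3.11 on NP+MBP (-0.81 ± 0.37). Neighbours in this cluster therefore went in both directions.

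**Figure D5:**
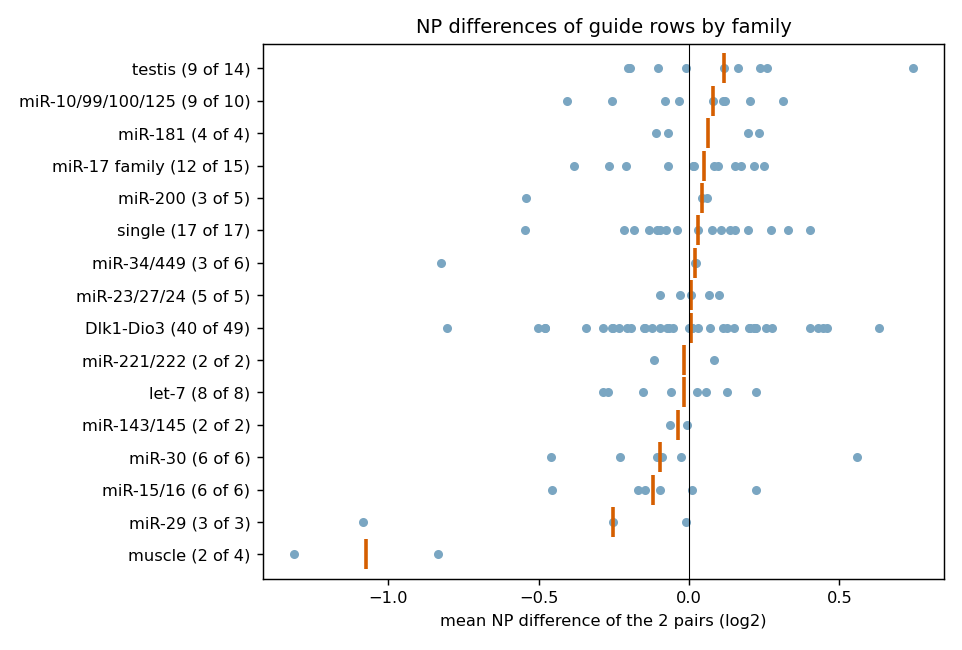
Mean NP difference of both pairs (horizontal, log2) for guide rows of the families with at least 2 rows above the filter, with 1 point per microRNA, orange bars at medians, and in brackets the rows above the filter of those on the array. Apart from the muscle list at -1.07 and miR-29 at -0.25, which stayed negative under centring (-0.86 and -0.04), medians lie between -0.12 and 0.11, and many turn sign with scaling. The muscle list is miR-133a and miR-133b alone, and miR-133b passed the filter only through the arrays without NP.

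The precursors were also represented on both array types. Of the 486 hairpin rows of the microRNA array, 45 reached the filter. Their pair differences had medians of -0.01 and 0.10, none was 1.5-fold apart in both pairs, and r between the pairs was -0.05. On the gene-level array, 157 sets annotated to a single microRNA gene could be matched to 229 members. Their pair differences ran from -0.46 to 0.49, and 0 sets were 1.5-fold apart the same way in both pairs. Of the 14 microRNAs above, 7 had such a set, and for 3 of these the mean difference had the same sign. Among the 3, the Mir500 set was lower in both pairs, at -0.36 and -0.06. The Mir505 set, at -0.135 and 0.050, and the Mir450a set, at -0.11 and 0.10, changed sign between the pairs. The Mir370 set read 6.41, 6.20, 6.39 and 6.10, lower with NP in both pairs, while miR-370 was higher. The Mir450a set read 3.88, 3.77, 3.82 and 3.92 (0.00 ± 0.14). Over the 148 guide rows with a set, the mean differences on both array types had r = -0.33, across microRNAs measured in the same 4 groups.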

How the data were processed

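The deposited microRNA values span -0.94 to 13.94 and were read as log2 signals of the authors, which is an inference. How the authors summarised them or corrected background is not given in the sources used here. MAS5, without a version, is named in the submitters' processing notes. Per the file headers, the authors made the gene-level log2 values by RMA. Groups came from sample titles. Each table was used on its own scale. The 2 pairs' differences were summarised as mean ± SD, and the NP term of an additive model was fitted over the 340 members in R 4.3.3 with limma 3.58.1 (lmFit, eBayes), with Benjamini-Hochberg adjustment at 0.05. The model was tested on simulated data. Figures used matplotlib 3.10.9, and the rest Python 3.11.15 with pandas 2.3.3 and numpy 2.4.6.

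RefSeq mature sequences (GRCr8) were matched by name: 65 members by the same name, 15 by a locus-numbered arm and 2 by the arm opposite one. For 37 the arm was taken from general knowledge of the guide arm. For 156 both arms were averaged for base content, for 30 the arm was not settled and a listed arm gave the content, and 35 had no match. No sequence is printed for the last 3 groups.

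The microRNAs named were the 12 highest and 12 lowest by the smaller same-sign pair difference, the 5 highest and 5 lowest of each pair, the 8 with most signal, up to 4 per family list, and rows of the same precursor. The let-7 and miR-29 families are given whole, and miR-539, miR-30e, miR-93, miR-19b, miR-503, miR-181b, miR-10b, miR-21, miR-202-star, miR-742 and miR-463 were named after their values were seen. Members, lists and tests were chosen with earlier results of these data known, and base content was examined after seeing the data. Alternatives were median centring, quantile normalization, cyclic loess, no filter, a 75th percentile filter, low values raised to the filter, other fold thresholds, a prior following signal and each pair alone. Added after seeing the data were content regressed out, members with a content value, and all 4 arrays at or above the filter.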

Additional observations from a re-analysis of the deposited data

Results flagged for a closer look

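In 7 members the pairs were at least 1.5-fold apart in opposite directions, and each is given as the second pair's difference minus the first. With 1 array per group this difference was not tested. It was -2.80 for miR-380-star, which read 1.26 on control, 2.38 on NP, 2.55 on MBP and 0.88 on NP+MBP. It was -2.55 for miR-152-star, at 2.13, 2.98, 2.80 and 1.09, and -2.32 for miR-429, a member of the epithelial miR-200 family, at 0.68, 1.30, 3.08 and 1.38. In all 3, NP and MBP alone each read higher than control and NP+MBP read lower than MBP. It was -1.51 for miR-671, -1.39 for miR-667-star and -1.25 for miR-7a-1-star. miR-211-star alone went the other way, at 1.68, with 2.55 on control, 1.64 on NP, 1.59 on MBP and 2.36 on NP+MBP. miR-380-star, miR-429 and miR-671 were under the filter on 2 arrays and miR-152-star on 1.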

How the results depend on the processing

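The limma count stayed at 0 in all 10 other settings, with a smallest adjusted p of 0.296 (median centring) to 0.534 (quantile normalization) and 18 to 46 rows at an unadjusted p under 0.05. The 14 microRNAs kept their direction in every setting in which they were measured. Settings that only change which rows are kept leave the values as they are. Median centring moves a pair by less than any pair difference of the 14, so these settings could not turn a direction. The 75th percentile filter measured 1 of the 4 higher and 0 of the 10 lower. Of the 10 lower, 6 stayed 1.5-fold apart in both pairs with median centring, 7 with quantile normalization and 7 with cyclic loess. Counts below are given as higher and lower, against 4 and 10 in the first pair, 2 and 20 in the second, and 4 and 10 at 1.5-fold in both. Median centring gave 9 and 6, 11 and 9, and 13 and 6. Quantile normalization gave 7 and 11 in the second pair and 8 higher in both, and cyclic loess 7 and 11 in the second pair. With no filter the first pair had 7 and 20, the second 6 higher, and both pairs 16 lower. With the 75th percentile filter each pair had 0 and 0, and both pairs 1 and 0. Raising low values to the filter left 6 lower in the first pair and 1 higher in the second. With base content regressed out, 13 were lower in the second pair. With all 4 arrays at or above the filter, 5 were lower in the first pair, 1 higher and 10 lower in the second, and 6 lower in both. At 1.5-fold the pairs had 24 and 27, and 26 and 54, and at 2-fold in both pairs 0 and 3. The correlation of the pairs was 0.12 to 0.25, and 0.46 with the 75th percentile filter. Of the other values, 186 moved by more than the SD of the pairs and 564 did not, and the cause was not tested. The differences were read within pairs throughout, and no block by replicate number could be added because each group had 1 array. Leaving out an array leaves 1 pair, a value with no test. Low signal limits the 14, of which 4 were under the filter on 1 array.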

Other observations

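The X-linked cluster from miR-322 to miR-450a was looked at after its values were seen. Of its 10 rows on the array, 9 passed the filter, 5 higher and 3 lower in both pairs, with a median of 0.20. miR-351 read 11.70 on control, 11.85 on NP, 11.50 on MBP and 11.84 on NP+MBP (0.24 ± 0.14), and miR-351-star was at 0.39 ± 0.01. miR-322 read 6.79, 6.61, 7.71 and 6.99 (-0.45 ± 0.38), while miR-322-star, from the same hairpin, was at 0.38 ± 0.12. miR-542-3p was at -0.69 ± 0.92 and miR-542-5p at 0.15 ± 0.22. The rows of one transcribed cluster therefore stood on both sides of 0. miR-450a and miR-542-3p, the lowest, had G and C contents of 36.4% and 31.8%, and miR-542-5p had 54.5%.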
